A study of Mus musculus with 6 samples.

Results

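The 6 conventional actin genes of the mouse, *Acta1*, *Acta2*, *Actc1*, *Actb*, *Actg1*, and *Actg2*, were followed in differentiating C2C12 myoblasts, a mouse muscle cell line. They were chosen by name from 55421 genes in the deposited tables, and all 6 were among the 19005 genes left after low counts were filtered out. The normal group (C2C12-CUG5) was stably transfected with a plasmid that carries *GFP* followed by 5 CTG repeats, and the DM1 group (C2C12-CUG200), a model of myotonic dystrophy type 1, with the same *GFP* plasmid carrying 200 CTG repeats. Both groups went through G418 selection and were harvested for total RNA on day 4 of differentiation, with 3 libraries per group. The study's methods do not say whether the 3 libraries of a group came from separate transfections or which promoter drives the *GFP* gene, so the p-values below measure the spread between these libraries.

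Actin is the protein of thin filaments in muscle and of microfilaments in every cell. *Acta1* (skeletal muscle) and *Actc1* (cardiac muscle) encode the sarcomeric isoforms, and cultured skeletal myotubes are known to make both. *Acta2* and *Actg2* encode the smooth muscle isoforms, of which *Acta2* is also transcribed in myoblasts and in activated fibroblasts. *Actb* and *Actg1* encode the cytoplasmic isoforms that are found in all cell types, and *Actb* is often used as a reference gene. Serum response factor (SRF) binds the CArG box, a short DNA motif in actin promoters. Its coactivators include the MRTF family, and free actin monomers hold MRTF proteins out of the nucleus.

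The libraries held between 61707889 and 80957325 counts. Each count corresponds to 75 aligned bases. The read length is not given in the sources used here. Levels between genes are compared below in units that account for transcript length, except where shares of counts are given beside them. The 6 actins took 1.12%, 1.02%, and 1.08% of the counts in CUG5 libraries 1, 2, and 3, and 0.792%, 0.840%, and 0.995% in CUG200 libraries 1, 2, and 3. All actin genes but *Actg2* had at least 26772 counts in every library, and *Actg2* had at least 916. Over all genes, CUG200 library 3 lay further from CUG200 library 1 (chi-square per degree of freedom 40.9, on counts divided by 4) than from CUG5 library 1 (38.0) or 2 (34.6).

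All 6 genes lie on the minus strand of GRCm38 and are protein coding. *Acta1* (ENSMUSG00000031972) is at chr8:123891769-123894751, *Actc1* (ENSMUSG00000068614) at chr2:114047282-114053548, *Acta2* (ENSMUSG00000035783) at chr19:34241090-34255590, *Actg2* (ENSMUSG00000059430) at chr6:83512905-83536265, *Actb* (ENSMUSG00000029580) at chr5:142903115-142906754, and *Actg1* (ENSMUSG00000062825) at chr11:120345690-120348542. The coding sequences of any pair were between 81.5% and 88.7% identical, with *Actb* and *Actg1* the closest pair.

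Promoter sequences from RefSeq (GRCm38.p6, 250 bases before to 50 bases after the start) were matched for 4 of the 6 genes, *Acta1*, *Actc1*, *Acta2*, and *Actg1*. They are shown because the CArG box is the element through which SRF acts on actin genes of all 3 classes. The CArG box was searched on both strands as CC and GG with 6 bases between them that are all A or T, which reads alike on either strand. Such a box was in 1.63% of 32851 promoters of this length, and in those of *Acta1*, *Actc1*, and *Actg1*. Each 30-base stretch below is written 5′ to 3′ on the minus strand with the box in capitals.
Acta1 (chr8:123894829-123894858): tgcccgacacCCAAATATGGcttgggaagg
Actc1 (chr2:114052903-114052932): gctaaggcgaCCAAATAAGGcaaggtggca
Actg1 (chr11:120348566-120348595): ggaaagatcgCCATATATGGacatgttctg
Acta2 (chr19:34255438-34255467): gtgctgaggtCCCTATATGGttgtgttaga

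The boxes began at positions -73 in *Acta1*, -47 in *Actc1*, and -90 in *Actg1* from the RefSeq start. The *Acta2* promoter held no box of the strict kind. The stretch shown for *Acta2*, at -84, has 1 G or C among the 6 middle bases. Boxes with at most 1 G or C there, strict ones included, were in 9.98% of all promoters. Counted this way there were 3 boxes in *Acta1*, 4 in *Actc1*, 2 in *Acta2*, and 1 in *Actg1*. The bases CANNTG, the E box read by myogenic factors such as MYOG and equal to its own reverse complement, were found 2 times in *Acta1*, 1 time in *Actc1*, 3 times in *Acta2*, and 1 time in *Actg1*, and in 72.3% of all promoters. TATAAA on either strand was in the *Acta1* and *Actc1* promoters and in 13.6% of all promoters. None of these matches shows that a factor was bound.

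The sarcomeric actins were the members called lower by edgeR with all 6 libraries. *Acta1*, the main actin of adult skeletal muscle thin filaments, stood at 4249, 3534, and 4032 CPM (counts scaled to library size, with TMM factors between libraries) in CUG5 libraries 1, 2, and 3, and at 1857, 1967, and 2448 CPM in CUG200 libraries 1, 2, and 3. Every DM1 library was lower than every normal library, and CUG200 library 3 was the highest of the DM1 group. The level was 3938 ± 367 CPM in the normal group and 2091 ± 314 CPM in the DM1 group (SD, n = 3), a log2 fold change of -0.91 ± 0.13 (SE) with an adjusted p of 0.00359 by the quasi-likelihood test of edgeR, adjusted by Benjamini-Hochberg over all tested genes. *Actc1*, the cardiac isoform that embryonic and cultured skeletal muscle also makes, stood at 705.0, 642.2, and 661.4 CPM in the normal libraries and at 372.0, 406.0, and 402.6 CPM in the DM1 libraries. These libraries were also fully apart, with little spread within a group. The log2 fold change of *Actc1* was -0.77 ± 0.08 with an adjusted p of 0.00197 by edgeR. Both genes kept their direction and their call in 18 of 18 other settings, where the log2 fold change was between -1.05 and -0.82 for *Acta1* and between -0.89 and -0.71 for *Actc1*. Neither passed the study's cutoff of an absolute log2 fold change over 1 in the fit of all libraries, which 0.816% of tested genes passed on the lower side. *Acta1* passed it without CUG200 library 3, at -1.04, and on TPM.

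In bulk RNA, fewer myotubes and less actin RNA per myotube cannot be told apart. Of 10 skeletal muscle markers, 6 were lower in the DM1 group and 0 were higher by edgeR (1 higher at an unadjusted p under 0.05, and 0 by DESeq2). Of all tested genes, 8.73% were called lower and 7.13% higher. *Myog*, a transcription factor of differentiating myoblasts, changed by -0.65 ± 0.08 (log2, SE), *Ckm*, the muscle creatine kinase, by -0.84 ± 0.08, and *Myh3*, the embryonic myosin heavy chain, by -1.32 ± 0.16, and these 3 genes were called with any 1 library left out. *Myod1*, *Des*, and *Mef2c*, the other 3, were not called without CUG200 library 2, with adjusted p-values of 0.0628, 0.1002, and 0.134. *Myod1* was also lost without CUG5 library 3, *Des* without CUG5 library 1, 2, or 3, and *Mef2c* without CUG5 library 2 or CUG200 library 1 or 3, with adjusted p-values up to 0.186. The 4 that did not pass were *Myf5* at -0.26 ± 0.08, *Myf6* at -0.61 ± 0.36, *Mymk* at -0.55 ± 0.31, and *Mymx*, which was higher in every DM1 library by CPM, at 0.23 ± 0.07. The summed TPM (the deposited level per transcript length, with the same total in every library) of the 10 markers was between 2650 and 2778 in the normal group and between 1358 and 2078 in the DM1 group. Cardiomyocyte markers were low throughout, with a summed TPM between 6.95 and 11.7 in the normal group and between 8.41 and 11.5 in the DM1 group, and *Myl7*, *Tbx5*, and *Mybpc3* had 0 counts in every library. The part of the skeletal muscle markers in the change of the actins was not tested.

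**Figure D1:**
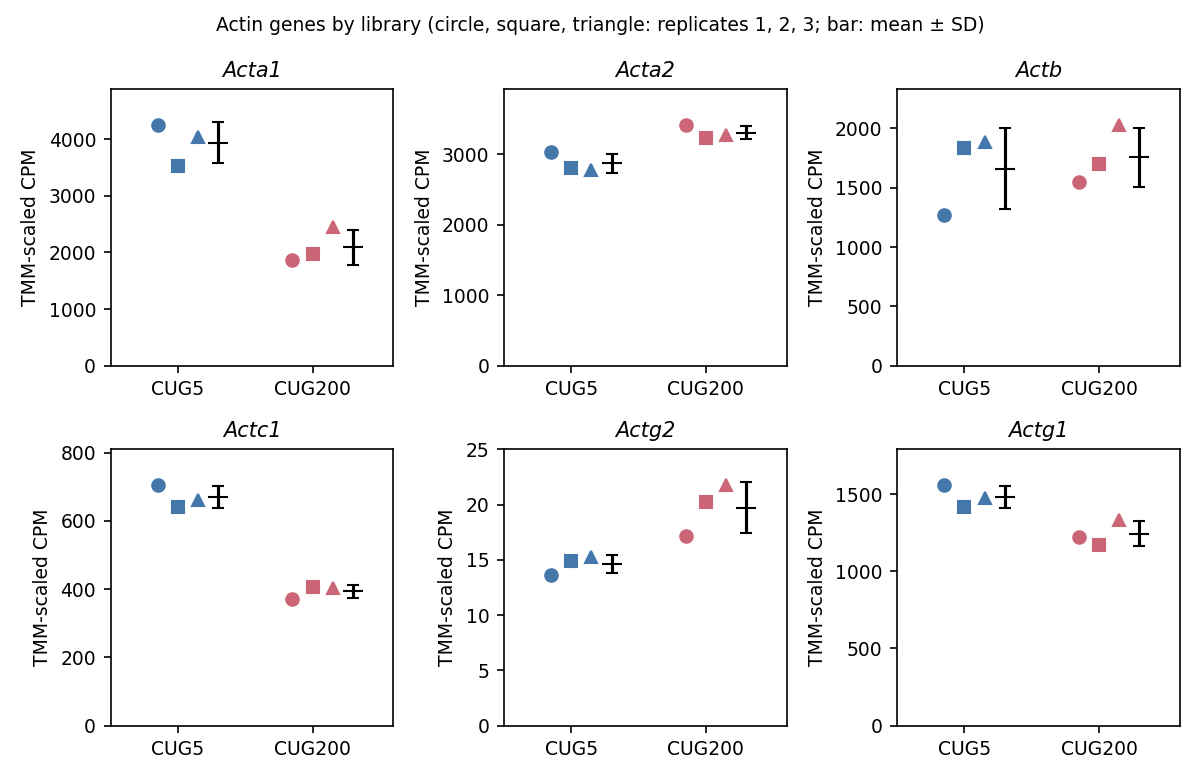
TMM-scaled CPM (vertical axes, each from 0) of the 6 actin genes in the 3 CUG5 and the 3 CUG200 libraries, with circles, squares, and triangles for replicates 1, 2, and 3 and bars for the mean ± SD. *Acta1* and *Actc1* were lower in every CUG200 library, *Acta2* and *Actg2* higher, *Actg1* lower by a small amount, and the groups of *Actb* overlapped, with CUG5 library 1 the lowest.

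The smooth muscle actins were higher in every DM1 library by CPM, but not by TPM. *Acta2*, the alpha isoform of vascular smooth muscle, was at 3027, 2799, and 2783 CPM in the normal libraries and at 3413, 3232, and 3273 CPM in the DM1 libraries. The groups did not overlap on this scale, but they did on TPM. The log2 fold change was 0.20 ± 0.08 with an adjusted p of 0.134 by edgeR, and *Acta2* was called in 0 of 18 other settings, in which it was between 0.08 and 0.24. *Actg2*, the gamma isoform of enteric smooth muscle and by far the least abundant actin here, was at 13.7, 14.9, and 15.2 CPM in the normal libraries and at 17.2, 20.3, and 21.8 CPM in the DM1 libraries. By CPM it was higher in every DM1 library, while on TPM the groups overlapped, with CUG200 library 1 at 18.2 TPM and the normal libraries between 18.47 and 18.7 TPM. Its log2 fold change on counts was 0.43 ± 0.12 with an adjusted p of 0.0413 by edgeR. The *Actg2* call was not stable. It was lost without any one of CUG5 libraries 1, 2, and 3 and without CUG200 library 2 or 3, with log2 fold changes from 0.36 to 0.48 and adjusted p-values between 0.0740 and 0.140 by edgeR, and it was kept only without CUG200 library 1, at 0.54 and an adjusted p of 0.0199. It was also lost on TPM values, at 0.28 and an adjusted p of 0.309 by limma-trend.

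Some markers of smooth muscle and of fibroblasts were also higher in the DM1 group. Of 6 smooth muscle markers that could be tested, 2 rose, and 0 fell by edgeR (0 at an unadjusted p under 0.05 and 0 by DESeq2), against 7.13% and 8.73% of all tested genes. The summed TPM of the 7 listed markers was between 268 and 303 in the normal group and between 423 and 553 in the DM1 group, of which *Tagln* alone made up 123 to 158 and 289 to 355 TPM. *Tagln* (transgelin) rose by 1.31 ± 0.09 (log2, SE) and *Cnn1* (calponin 1) by 1.54 ± 0.34 with adjusted p-values of 0.000481 and 0.0197 by edgeR. *Tagln* was called with any 1 library left out. The *Cnn1* call was lost without CUG5 library 3 or CUG200 library 2, at adjusted p-values of 0.0518 and 0.0655. *Myh11*, the smooth muscle myosin heavy chain, stood at no more than 0.0985 TPM and *Myocd*, an SRF coactivator of smooth and cardiac muscle, at no more than 0.0647 TPM in any library, while *Smtn* stood at 113 to 183 TPM and *Synpo2* at 5.01 to 25.4 TPM. The other markers tested did not pass, with *Smtn* at 0.31 ± 0.11, *Lmod1* at -0.10 ± 0.23, *Synpo2* at -0.16 ± 0.79, and *Myh11* at -2.42 ± 1.29, and the median of the 6 was 0.11. Of 4 fibroblast markers tested, 2 rose and 0 fell by edgeR (0 at an unadjusted p under 0.05 and 0 by DESeq2), namely the matrix genes *Col1a1* by 1.06 ± 0.09 and *Dcn* by 0.45 ± 0.11. *Dcn* was not called without CUG5 library 1, 2, or 3 or CUG200 library 2, with adjusted p-values up to 0.115. *Pdgfra*, at 0.31 ± 0.12, and *Col3a1*, at 0.20 ± 0.10, did not pass. *Thy1*, the listed fibroblast marker that could not be tested, stood at no more than 0.0613 TPM in any library. The summed TPM of the 5 listed fibroblast markers was between 1475 and 1738 in the normal group and between 1708 and 2070 in the DM1 group, so that the groups overlapped. The part of these markers in the levels of the smooth muscle actins was not tested.

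The cytoplasmic actins did not pass the test. *Actb* was at 1268, 1833, and 1884 CPM in the normal libraries and at 1546, 1697, and 2028 CPM in the DM1 libraries. The groups overlapped, and CUG5 library 1 was the lowest of all. The coefficient of variation within the normal group was 20.6%, against 4.76% to 9.31% for the other 5 actins. The log2 fold change was 0.08 ± 0.17 with an adjusted p of 0.797 by edgeR. Its sign turned without CUG5 library 1, at -0.082, and without CUG200 library 3, at -0.037. *Actg1* was at 1558, 1414, and 1475 CPM in the normal libraries and at 1224, 1172, and 1332 CPM in the DM1 libraries. The groups were apart, with CUG200 library 3 the nearest to the normal group, and the log2 fold change was -0.25 ± 0.09 with an adjusted p of 0.0869 by edgeR and 0.0535 by DESeq2. *Actg1* was called in 1 of 18 other settings, without CUG200 library 3, at -0.31 and an adjusted p of 0.0370.

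The reads of *Actg1* cannot be fully told from those of its processed pseudogenes. Of 1878 stretches of 75 bases in its main transcript, 1023 (54.5%) also occur unchanged in 10 other annotated genes. The 75 bases are those of 1 count and not a known read length, and the share depends on the length chosen. The most similar, *Gm12715*, held 21672, 13511, and 17263 counts in CUG5 libraries 1, 2, and 3, against 14640, 13833, and 15268 in CUG200 libraries 1, 2, and 3. With these genes added to *Actg1* (an alternative chosen after seeing the data), its log2 fold change was -0.25 with an adjusted p of 0.0984 by edgeR. The share of such stretches was 2.60% for *Actb*, 0.437% for *Acta1*, and 0 for *Acta2*, *Actc1*, and *Actg2*. Among annotated neighbours, *Actg1* shares exonic bases with the miRNA genes *Gm23419* and *Mir6935*, which had at most 11 counts in a library. *Acta1* and *Actc1* overlap opposite-strand genes, *Gm20388* and *A530058N18Rik*, that share no exon with them and had at most 13 counts in a library.

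In all, 2 of 6 actin genes were called lower, against 8.73% of all tested genes, and 1 of 6 was called higher, against 7.13%, so that 3 of 6 changed in either direction, against 15.9%. With the fold cutoff added, 0 of 6 passed by edgeR and 0 by DESeq2, against 0.816% of tested genes on the lower side and 1.36% on the higher side. By TMM-scaled CPM the groups did not overlap for 5 of 6 genes, against 37.2% of all tested genes. Of these, 3 were lower in the DM1 group, against 19.3%, and 2 were higher, against 17.9%. On TPM the groups were apart for *Acta1*, *Actc1*, and *Actg1*, all lower, and overlapped for the other 3 genes. The median log2 fold change of all tested genes was 0.02.

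**Figure D2:**
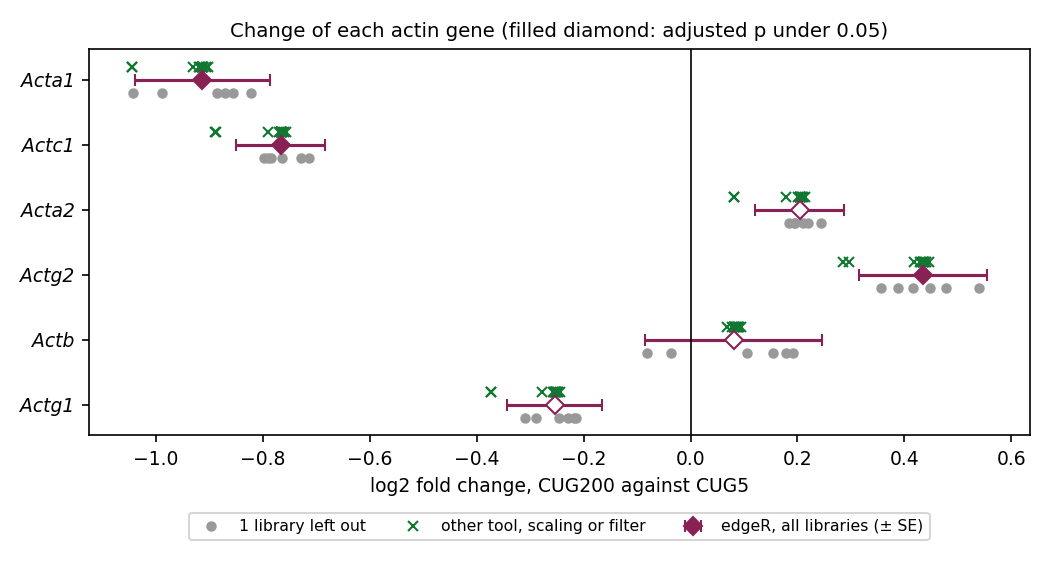
Log2 fold change of CUG200 against CUG5 (horizontal axis) for each actin gene, with diamonds for the edgeR fit of all libraries (± SE, filled where the adjusted p is under 0.05), grey circles for fits with 1 library left out, and crosses for other tools, scalings, or filters. *Acta1* and *Actc1* stayed between -1.05 and -0.71 in every setting, and *Actb* lay on both sides of 0.

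The make-up of actin mRNA was compared by the share of each isoform in the summed TPM of the 6 genes. The sarcomeric share was 52.5%, 47.2%, and 49.8% in CUG5 libraries 1, 2, and 3, and 31.5%, 33.5%, and 34.9% in CUG200 libraries 1, 2, and 3. Sarcomeric mRNA thus made up 49.8% ± 2.62 of actin mRNA in the normal group and 33.3% ± 1.69 in the DM1 group (SD, n = 3). The smooth muscle share was 22.9%, 22.6%, and 21.1% in the normal libraries and 34.5%, 32.7%, and 28.6% in the DM1 libraries, or 22.2% ± 0.953 and 31.9% ± 2.99. The cytoplasmic share was 24.7%, 30.2%, and 29.1% in the normal libraries and 34.0%, 33.8%, and 36.5% in the DM1 libraries, or 28.0% ± 2.92 and 34.7% ± 1.49. The difference of the cytoplasmic share was 6.76 percentage points on TPM, 4.40 on counts, and 4.29 on coverage. None of the 3 shares overlapped between groups. No p is given for them, because the shares are scores over chosen genes and must add up to the whole.

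Shares of a whole rise when another part falls, so the summed levels are given beside them. The sarcomeric sum was 5394 ± 702 TPM in the normal group and 2690 ± 636 TPM in the DM1 group, and the groups were apart. The smooth muscle sum was 2396 ± 248 and 2534 ± 226 TPM and the cytoplasmic sum 3004 ± 96.9 and 2804 ± 656 TPM, and for both sums the groups overlapped. All 6 genes together summed to 11727, 10096, and 10557 TPM in the normal libraries and to 6929, 7400, and 9755 TPM in the DM1 libraries. CUG200 library 3 had the highest actin sum of its group and lay close to the normal group.

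The balance within each class is given next. *Acta1* made up 86.1%, 84.9%, and 86.2% of sarcomeric TPM in the normal libraries and 83.6%, 83.2%, and 86.2% in the DM1 libraries, so that the groups overlapped. *Acta2* made up between 99.0% and 99.3% of smooth muscle TPM in every library. *Actb* made up 43.8%, 55.9%, and 55.8% of cytoplasmic TPM in the normal libraries and 57.4%, 59.2%, and 62.5% in the DM1 libraries. These groups were apart on TPM, but overlapped on counts, where *Actb* took 44.9%, 56.5%, and 56.1% in the normal and 55.8%, 59.1%, and 60.4% in the DM1 libraries.

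The order of the isoforms by TPM differed between the groups at its head. In the normal group *Acta1* led with 4626 ± 628 TPM, followed by *Acta2* with 2377 ± 248, *Actb* with 1561 ± 256, *Actg1* with 1443 ± 160, *Actc1* with 767 ± 77.4, and *Actg2* with 18.5 ± 0.0974 TPM. Only *Actb* and *Actg1* overlapped with a neighbour in that order. In the DM1 group the order was *Acta2* with 2511 ± 222 TPM, *Acta1* with 2275 ± 582, *Actb* with 1684 ± 469, *Actg1* with 1119 ± 187, *Actc1* with 416 ± 56.4, and *Actg2* with 23.1 ± 4.98 TPM. Here *Acta2* and *Acta1* overlapped, as did *Acta1* and *Actb*. On coverage and on counts per transcript length *Acta2* and *Acta1* also overlapped, but *Acta1* and *Actb* were apart. In the normal group *Actg1* came before *Actb* on coverage, with overlapping ranges. The ratio of *Acta1* to *Acta2* TPM was 1.99, 1.79, and 2.05 in the normal libraries and 0.770, 0.862, and 1.06 in the DM1 libraries. Among all genes of a library ranked by TPM, *Acta1* held ranks 21 to 24 in the normal and 34 to 56 in the DM1 libraries.

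**Figure D3:**
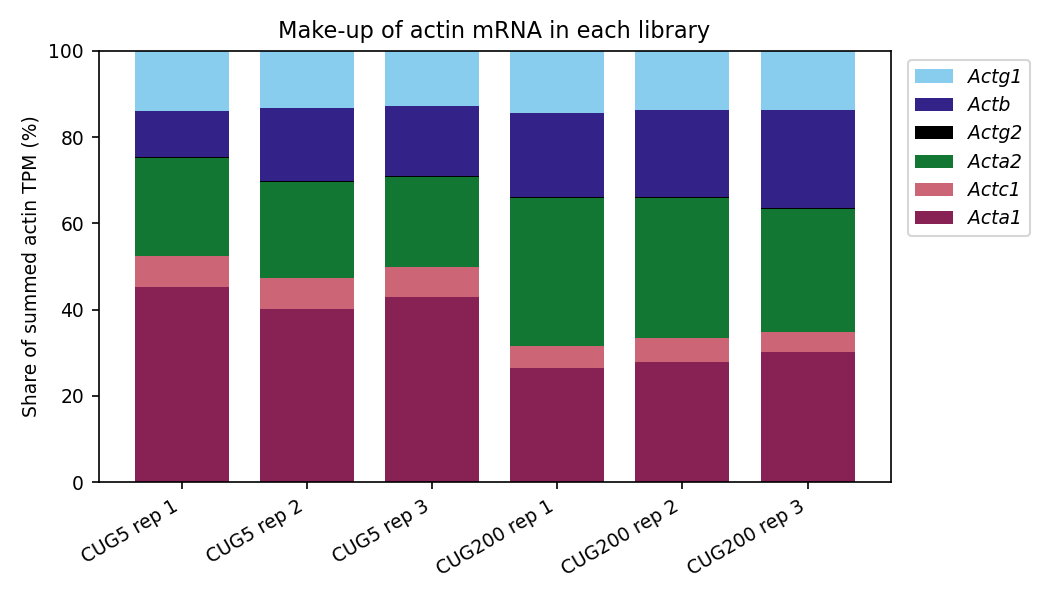
Share (%) of each isoform in the summed TPM of the 6 actin genes (vertical axis, 0 to 100) in each of the 6 libraries, stacked in the colours of the key. *Acta1* and *Actc1* at the base filled 47.2% to 52.5% of the normal bars and 31.5% to 34.9% of the DM1 bars, and *Acta2* filled more of every DM1 bar than of any normal bar.

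For each actin but *Actg1*, the genes whose centred log2 CPM profile over the 6 libraries lay nearest were sought among 9661 genes with a mean of at least 10 CPM. The measure was the root mean square difference, in log2 units. Nearest to *Acta1* were *Mybph* (0.0480), a myosin binding protein gene, *Rrp12* (0.0587), and *Hrc* (0.0616), a gene of a calcium binding protein of the sarcoplasmic reticulum. Nearest to *Actc1* were *Stac3* (0.0369), which encodes a component of excitation-contraction coupling, *Dll1* (0.0419), a Notch ligand, and *Pdpr* (0.0431). *Acta2* was nearest to *Gm3756* (0.0148), *Ubxn1* (0.0216), and *Pla2r1* (0.0262), and *Actg2* to *Zmiz1* (0.0295), *Thra* (0.0303), a thyroid hormone receptor gene, and *Slc9a5* (0.0378). *Actb* was nearest to *Tet2* (0.0425), *Tti1* (0.0436), and *Prdm10* (0.0610), which were likewise lowest in CUG5 library 1. Over 6 libraries many genes share such a profile.

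Genes that act with actin were described by 8 lists, beginning with the regulators of SRF. The counts of each list are to be read against the 8.73% of all tested genes that were called lower and the 7.13% called higher. Of 17 tested regulators of SRF and MRTF, 3 fell and 1 rose by edgeR, the latter near the share of all genes. DESeq2 called 3 higher and 3 lower. With 1 library left out, edgeR called between 0 and 2 higher and between 1 and 4 lower. The median log2 fold change was -0.00. *Abra*, a striated muscle activator of SRF signalling that binds actin, was at 20.01, 18.4, and 21.7 CPM in the normal and at 10.4, 8.93, and 7.49 CPM in the DM1 libraries. Its log2 fold change was -1.17 ± 0.14 with an adjusted p of 0.00267 by edgeR, and it was called with any 1 library left out. *Srf* itself was at 29.8, 28.1, and 29.0 CPM in the normal and at 18.3, 19.2, and 25.4 CPM in the DM1 libraries. The *Srf* log2 fold change was -0.47 ± 0.13 (adjusted p = 0.0462). The kinase gene *Rock1* fell by 0.34 on the log2 scale (adjusted p = 0.0430) and the cofilin phosphatase gene *Ssh3* rose by 0.73 (adjusted p = 0.0164).  *Srf* was called only without CUG200 library 3 (adjusted p = 0.00449) and otherwise had adjusted p-values between 0.108 and 0.154 by edgeR with 1 library left out. *Rock1* and *Ssh3* were lost without CUG5 library 1, 2, or 3 or CUG200 library 2, with adjusted p-values up to 0.170 and 0.0631. *Mrtfa* and *Mrtfb*, the coactivators, were at 0.13 ± 0.23 and -0.16 ± 0.12 and did not pass the test.

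Of 22 known targets of SRF and MRTF other than actins, 3 rose and 5 fell, against 7.13% and 8.73% of all tested genes, with a median of -0.09. The genes that rose were *Tagln*, *Cnn1*, and *Tpm4*, a cytoskeletal tropomyosin (0.53 ± 0.10, adjusted p = 0.0102 by edgeR). Among those that fell were the immediate early gene *Egr1* (-0.42 ± 0.09, adjusted p = 0.0150), the sarcomeric tropomyosin gene *Tpm2* (-0.46 ± 0.10, adjusted p = 0.0177), and *Vcl*, which encodes vinculin of cell adhesions (-0.46 ± 0.11, adjusted p = 0.0250). The *Tpm4* call was lost without CUG5 library 2 or 3, at adjusted p-values of 0.0504 and 0.0566. *Egr1* was lost without CUG5 library 2 or 3 or CUG200 library 2 (adjusted p up to 0.0802 by edgeR). *Tpm2* was lost without CUG5 library 1, 2, or 3 or CUG200 library 2 (up to 0.0909). *Vcl* was lost without CUG5 library 1 or 3 or CUG200 library 1 or 2 (up to 0.113). With 1 library left out, the number that fell was between 0 (without CUG5 library 3 or CUG200 library 2) and 5, and the number that rose between 1 (without CUG5 library 3) and 3.

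Of 17 genes of actin folding and processing, which include the subunits of the chaperonin CCT and of prefoldin that fold every actin isoform, 1 rose and 0 fell by edgeR (1 lower at an unadjusted p under 0.05, and 0 by DESeq2). *Pfdn1*, a prefoldin subunit gene, was at 65.4, 61.3, and 61.5 CPM in the normal and at 104.6, 83.4, and 74.7 CPM in the DM1 libraries (log2 fold change 0.48 ± 0.12, adjusted p = 0.0305 by edgeR), and its call was lost without CUG5 library 1, 2, or 3 or CUG200 library 2, with adjusted p-values up to 0.108.

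Of 17 genes of monomer binding and filament turnover, 3 were called higher and 4 lower, against 7.13% and 8.73% of all tested genes. *Dstn* (destrin, which depolymerises actin) was at 279, 291, and 286 CPM in the normal and at 514, 473, and 429 CPM in the DM1 libraries. *Tmsb4x* (thymosin beta-4, which sequesters monomers) was at 999, 844, and 749 CPM in the normal and at 1421, 1501, and 1332 CPM in the DM1 libraries. Their log2 fold changes were 0.72 ± 0.09 and 0.72 ± 0.12, with adjusted p-values of 0.00274 and 0.00666 by edgeR, and both were called with any 1 library left out. The non-muscle cofilin gene *Cfl1* rose by 0.43 ± 0.08 (adjusted p = 0.0106), while the muscle cofilin gene *Cfl2* was at -0.30 ± 0.16 (adjusted p = 0.259). *Coro1c* (coronin), *Wdr1* (a cofilin cofactor), and *Gsn* (gelsolin) fell by 0.45, 0.35, and 0.36 on the log2 scale, with adjusted p-values of 0.00979, 0.0262, and 0.0269. Without CUG5 library 3 none of the genes that fell was called, with adjusted p-values between 0.0595 and 0.127 for these 3 genes, and 1 was called without CUG5 library 1 or 2 or CUG200 library 2. The *Cfl1* call was lost without CUG5 library 1 or 3, at adjusted p-values of 0.0531 and 0.0631.

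Of 23 genes of filament nucleation and capping, 5 fell and 1 rose, against 8.73% and 7.13% of all tested genes, with a median of -0.10. *Lmod3*, a leiomodin that nucleates thin filaments in skeletal muscle, was at 123, 130, and 132 CPM in the normal and at 63.2, 59.4, and 59.4 CPM in the DM1 libraries (log2 fold change -1.08 ± 0.08, adjusted p = 0.000538 by edgeR). *Tmod1*, which caps the pointed end of thin filaments, was at -0.95 ± 0.13, *Cobl*, a nucleator, at -0.78 ± 0.10, and *Lmod2*, another leiomodin of striated muscle, at -0.72 ± 0.07. *Lmod3*, *Lmod2*, and *Cobl* were called with any 1 library left out. Of the Arp2/3 complex, *Arpc3* rose by 0.52 ± 0.11 (adjusted p = 0.0170) and *Arpc4* fell by 0.49 on the log2 scale (adjusted p = 0.00917). The *Arpc3* call was lost without CUG5 library 2 or 3 or CUG200 library 2, with adjusted p-values up to 0.0784. With 1 library left out, the number that fell was between 4 (without CUG200 library 2) and 6 (without CUG200 library 3).

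Of 13 partners of actin in the sarcomeric thin filament, 8 fell and 0 rose by edgeR (0 at an unadjusted p under 0.05 and 0 by DESeq2), against 8.73% and 7.13% of all tested genes, with a median log2 fold change of -0.42. *Actn2*, an alpha-actinin of the Z disc, was at 20.6, 19.2, and 23.0 CPM in the normal and at 8.33, 8.10, and 10.5 CPM in the DM1 libraries (log2 fold change -1.22 ± 0.14, adjusted p = 0.00211 by edgeR). *Actn3*, the fast-fibre alpha-actinin, fell by 0.68 and *Tnnt1*, the slow troponin T, by 0.56 on the log2 scale, with adjusted p-values of 0.00333 and 0.00410, and these 3 genes were called with any 1 library left out. *Neb* (nebulin, which spans the thin filament) was at -0.68 ± 0.18. *Tpm1* at -0.00 ± 0.08, *Tnnc1* at -0.04 ± 0.10, *Tnni2* at -0.05 ± 0.09, *Tnnt2* at -0.17 ± 0.08, and *Tpm3* at -0.23 ± 0.10 did not pass the test. The number that fell was between 3 (without CUG5 library 1 or 3) and 9 (without CUG200 library 3), and it was 4 without CUG5 library 2 or CUG200 library 2.

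**Figure D4:**
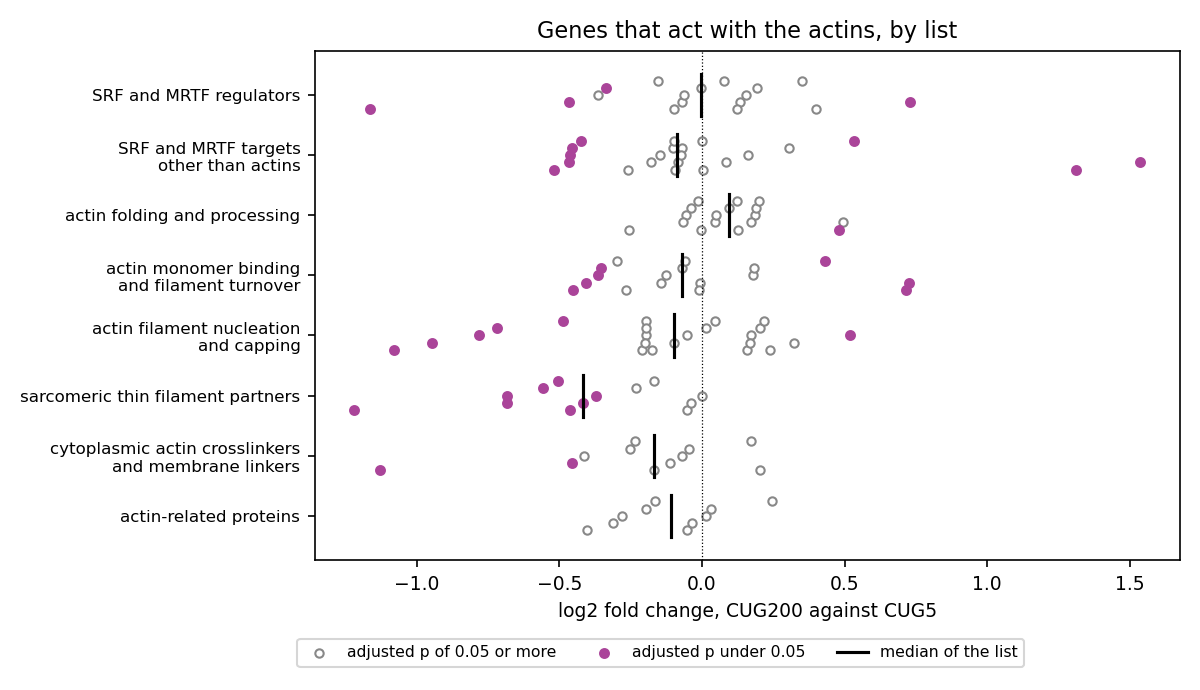
Log2 fold change of CUG200 against CUG5 (horizontal axis) for the genes of 8 lists, with filled points for an adjusted p under 0.05 by edgeR, open points for the rest, and vertical bars for the median of each list. The median of thin filament partners lay at -0.42, and the other medians between -0.17 and 0.09.

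Of 11 cytoplasmic crosslinkers and membrane linkers, 2 fell and 0 rose by edgeR (0 at an unadjusted p under 0.05 and 0 by DESeq2). *Fscn1*, which encodes fascin of filopodial bundles, was at 74.0, 136, and 133 CPM in the normal and at 54.9, 51.3, and 50.8 CPM in the DM1 libraries, a log2 fold change of -1.13 ± 0.22 with an adjusted p of 0.0181 by edgeR. CUG5 library 1, the library with the lowest *Actb*, also had the lowest *Fscn1* of the normal group. The *Fscn1* call was kept only without that library (adjusted p = 0.00326), and was otherwise lost with 1 library left out, at adjusted p-values between 0.0506 and 0.0916. The other gene was *Vcl*, which is also on the list of SRF targets. The *Vcl* call was lost without CUG5 library 1 or 3 or CUG200 library 1 or 2, with adjusted p-values up to 0.113 by edgeR. With 1 library left out, the number of genes on this list that fell was between 0 and 4. Of 10 actin-related protein genes tested, which encode distant relatives of actin in the Arp2/3 complex, dynactin, and chromatin remodellers, 0 rose and 0 fell by edgeR (0 higher and 1 lower at an unadjusted p under 0.05, and 0 in either direction by DESeq2).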

How the data were processed

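Total RNA of 6 libraries was sequenced, and groups and replicate numbers came from the labels. The authors trimmed reads with Trim Galore, aligned them to GRCm38 with HISAT2, and quantified them with StringTie (submitters' processing notes and the paper's methods). Versions, annotation, and strand setting are not given in the sources used here. They deposited whole-number counts per gene without normalization, and for each library the coverage (signal), FPKM, and TPM of every gene as StringTie gives them. The deposited FPKM values were not analysed further. Sample columns left unused numbered 0. The deposited count equalled coverage times length over 75, within 1 count plus 0.1% of it, in 1836 of 1843 single-transcript genes (99.6%). Gene spans came from the deposited tables and were the same in GENCODE M21.

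Counts were filtered with filterByExpr (minimum count 10), scaled by TMM (factors 0.940 to 1.05), and fitted without covariates by edgeR (glmQLFit, robust), whose quasi-likelihood p-values were adjusted by Benjamini-Hochberg and called under 0.05. The precision is set by the spread of 3 libraries a group. The floor of 3 counts was worth 0.0371 to 0.0486 CPM. Chi-square per degree of freedom between libraries of 1 group was 10.9 to 40.9 on counts divided by 4, which assumes 4 counts per fragment. Each library was counted as 1 replicate, although these values cannot show that the libraries came from separate transfections. On simulated data in which 200 genes differed by 1 on the log2 scale, edgeR recovered 112 with 5 false calls among 18717 genes.

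The members and lists were chosen with earlier results of these data known. By rule, the text names the 6 members, up to 3 genes a list and direction with the smallest p among called genes whose groups do not overlap, the 3 nearest profiles to each member, markers, overlapping genes, and pseudogenes. The nearest profiles to *Actg1* are not reported here. *Mrtfa*, *Mrtfb*, *Cfl2*, *Tmod1*, *Arpc4*, *Neb*, *Tpm1*, *Tnnc1*, *Tnni2*, *Tnnt2*, and *Tpm3* fell outside it and were named after their values were seen. Alternatives to this fit were each library left out, the replicate block, no robust estimation, 2 other filters, library sizes without TMM, size factors of DESeq2, DESeq2 itself, TPM by limma-trend after adding 1 or 0.1 before taking log2, counts summed with overlapping genes and pseudogenes, other units for the shares, and, for the lists, DESeq2 and the study's fold cutoff. Counts divided by 4, counts summed with all genes sharing a 75-base window, shares of counts per transcript length, and lists with a library left out were added after seeing the data. Scripts ran in Python 3.11.15 (numpy 2.4.6, pandas 2.3.3, matplotlib 3.10.9) and in R 4.3.3 (limma 3.58.1, DESeq2 1.42.0, edgeR 4.0.16).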

Additional observations from a re-analysis of the deposited data

How the results depend on the processing

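*Acta1*, *Actc1*, and *Acta2* kept their direction and their side of the threshold in all 18 other settings. For *Actb* the log2 fold change ranged from -0.082 to 0.19 with 1 library left out and turned below 0 without CUG5 library 1 (-0.082) and without CUG200 library 3 (-0.037). For *Actg1* it ranged from -0.31 to -0.21, and for *Actg2* from 0.36 to 0.54. The *Actg2* call was lost with library sizes alone (0.42, adjusted p = 0.0838 by edgeR), on log2(TPM + 1) (0.28), and on log2(TPM + 0.1) (0.30), so that 0 actin genes were called higher there, and 0 or 1 with 1 library left out. The cause was not tested. The median log2 fold change of all genes shifted by -0.11 on log2(TPM + 0.1), relative to which *Acta1* was at -0.94, *Actc1* at -0.78, *Acta2* at 0.19, *Actb* at 0.20, *Actg1* at -0.26, and *Actg2* at 0.40. The difference of the smooth muscle share was 12.5 percentage points on coverage instead of 9.76, and that of the cytoplasmic share was 4.40 on counts and 4.29 on coverage instead of 6.76.

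All 1660 genes called lower and 1356 called higher became 816 and 427 on log2(TPM + 1) and 850 and 434 on log2(TPM + 0.1), and 485 to 2111 and 543 to 1678 with 1 library left out (lowest without CUG5 library 3, highest without CUG200 library 3). Genes past both cutoffs numbered 155 lower and 259 higher, against 79 and 61 on log2(TPM + 1), 194 and 171 on log2(TPM + 0.1), and 91 to 192 and 181 to 271 with 1 library left out.

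With the cutoff on the fold change added, 0 SRF and MRTF regulators were higher and 1 lower, 0 SRF and MRTF targets were lower, 0 genes of folding and processing were higher, 0 of monomer binding and turnover were higher and 0 lower, 0 of nucleation and capping were higher and 1 lower, 1 thin filament partner was lower, and 1 crosslinker or membrane linker was lower. DESeq2 called 3 regulators and 2 folding genes higher. With 1 library left out, regulators called higher ranged from 0 to 2 and lower from 1 to 4, targets higher from 1 to 3 and lower from 0 to 5, folding genes higher from 0 to 2, turnover genes lower from 0 to 4, nucleation and capping genes higher from 0 to 1, thin filament partners lower from 3 to 9, crosslinkers and membrane linkers lower from 0 to 4, and actin-related proteins higher from 0 to 1.

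Same-numbered libraries of the groups deviated together with correlations of only 0.0675, 0.0222, and 0.0263, and not every library correlated best with its own number, so the numbers were not taken as pairs. With the replicate block, 1497 genes were called lower and 1326 higher, and no call among the actins changed, with *Acta1* at -0.92 (adjusted p = 0.00908 by edgeR), *Actc1* at -0.77 (0.00796), *Actg2* at 0.43 (0.0398), *Acta2* at 0.21 (0.131), *Actg1* at -0.26 (0.0855), and *Actb* at 0.09 (0.584).

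Limits are the 3 libraries per group, whose origin from separate transfections is not stated, 1 day of differentiation, the low level of *Actg2*, and the pseudogenes of *Actg1*.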
